A study of Mus musculus with 10 samples.

Results

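The 10 V segments IGKV4-50, IGKV4-51, IGKV4-53, IGKV4-54, IGKV4-55, IGKV4-57, IGKV4-57-1, IGKV4-59, IGKV4-61 and IGKV4-63 are a selection of the Igkv4 family on the side of the mouse kappa light-chain locus nearer the J segments. They were taken from a table of kappa joins by their V call with the allele removed, and they are 10 of the 114 V segments in that table. They hold 10797 of its 161780 counts. The table also lists 21 other Igkv4 segments, of which 17 have numbers above 63 and lie farther from the J segments, and 4 lie among the 10. The study measured the kappa repertoire in RNA of small pre-B cells sorted from the bone marrow of C57Bl6 mice aged 6 to 12 weeks. A group of 5 samples carried the wild-type locus (WT), and the other group of 5 carried the rsCBE genotype, which the design text writes as a deletion. The labels do not spell out rsCBE, and no other allele, treatment or age is given that would separate the groups. A table of kappa joins holds no marker genes, so the cell type was taken from the labels. The labels do not say that samples are separate animals, so p-values measure the spread between these samples, which may be technical.

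Total counts ran from 3109 in WT replicate 4 to 24083 in rsCBE replicate 1, and the counts on the 10 segments from 219 to 1463 per sample. Replicates 1 and 2 of each genotype are given as 1 library each, and replicates 3 to 5 as 2 parts, a and b, which were added. These sets of samples stood apart from each other and are called batches below, although the labels name no batch. Both genotypes are present in both sets. Differences within the sets are given as rsCBE minus WT, first for the samples given as 1 library and then for those given as 2 parts.

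A kappa light chain is made in a small pre-B cell, where the RAG recombinase cuts beside a V and a J segment and the ends are joined. J1, J2, J4 and J5 are functional in the mouse, and J3 is not. A cell whose light chain gives a self-reactive or non-functional receptor can rearrange again, bringing a V segment farther upstream next to a J segment farther downstream, a process called receptor editing. Use of J1 is therefore commonly read as early joining and use of J5 as late joining. The Igkv4 family is a large group of closely related V segments, and its members lie mixed with pseudogenes.

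In the GENCODE M21 annotation of GRCm38 (mm10), all 10 segments lie on the reverse strand within chr6:69377944-69701287, while the J segments lie on the forward strand. The stretch is 323.344 kb long and begins 1021.27 kb from J1, so these segments are nearer to J1 than the Igkv4 segments numbered above 63 but not close to it. Each is annotated as an immunoglobulin V gene of 2 exons. IGKV4-50, the nearest, is at chr6:69700767-69701287, and IGKV4-63, the farthest, is at chr6:69377944-69378472, 1344.09 kb from J1. Between them lie 11 other V segments, 9 of them pseudogenes. Of the 11, 4 appear in the table (IGKV4-56, IGKV4-58, IGKV4-60 and IGKV4-62, with 407, 409, 109 and 65 counts).

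The 10 segments are much alike in sequence. Over the last 280 bases of each annotated transcript, identity between members ran from 85.0% to 96.8% in 45 pairs, highest between IGKV4-54 and IGKV4-61. How the authors settled reads that fitted several segments is not given, so counts may have moved between close members. The germline bases that a V segment contributes to CDR3, the hypervariable loop made at the junction, are nevertheless different in all 10. They are shown here because they start every CDR3 described below. Each has 25 bases after the codon of the conserved cysteine, and capitals mark bases that differ from the most common base of the 10 at that position.
IGKV4-50: cagcagtTTaCtagttCcccaTcca
IGKV4-51: cagcagtggagtGgttacccaTTca
IGKV4-53: caAcagtggagtagttacccacTca
IGKV4-54: cagcaAtATCAtagttacccaccca
IGKV4-55: cagcagtggagtagttacccaccca
IGKV4-57: cagcaAAggagtagttacccaccca
IGKV4-57-1: cagcagtACagtGgttacccacTca
IGKV4-59: cagcagtggagtagtAacccaccca
IGKV4-61: cagcagtATCAtagttacccaccca
IGKV4-63: TTTcagGggagtGgGtacccacTca
IGKV4-55 has the most common base throughout, and IGKV4-63 differs from it at 7 positions. IGKV4-54 and IGKV4-61 share the bases ATCA in the middle of this stretch. IGKV4-51, IGKV4-53, IGKV4-57-1 and IGKV4-63 end in ttca or ctca, and the others end in cca. From the same annotation, the J segments bring gtggacg (J1), tgtacacg (J2), attcacg (J4) or gctcacg (J5) to the end of CDR3.

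Together the 10 segments held a similar share of the kappa joins in both genotypes. Their summed share was 5.68%, 6.84%, 7.51%, 7.04% and 8.71% in WT replicates 1 to 5 and 5.94%, 6.19%, 6.71%, 7.64% and 6.86% in rsCBE replicates 1 to 5. The means were 7.16% ± 1.10 and 6.67% ± 0.661 (SD, n = 5 each), and the ranges overlapped. Within the batches the differences were -0.194 and -0.680 percentage points. In bulk RNA, fewer cells with a join and less RNA per cell cannot be told apart. IGKV4-50 was the most used of the 10 on average, with 1.97% ± 0.514 in the WT and 1.61% ± 0.248 in the rsCBE samples (SD, 5 of each). It ranked 16 of the 114 V segments by mean share. In the rsCBE samples given as 2 parts IGKV4-57 was above it, at 1.61% beside 1.44%. In the WT samples given as 2 parts IGKV4-57 was below it, at 1.41% beside 1.84%. The order of the members after IGKV4-50 differed between the batches. In the samples given as 1 library IGKV4-53 (1.29%) and IGKV4-55 (1.11%) followed, ahead of IGKV4-57 (0.413%) and IGKV4-54 (0.402%). In the samples given as 2 parts IGKV4-57 (1.51%), IGKV4-59 (1.12%) and IGKV4-55 (1.02%) came next, and IGKV4-53 stood at 0.701%. IGKV4-51, IGKV4-54, IGKV4-57-1, IGKV4-61 and IGKV4-63 had mean shares under those of IGKV4-53 and IGKV4-55 in both. IGKV4-61 had the lowest mean in the samples given as 1 library (0.0884%, beside 0.103% for IGKV4-63), and IGKV4-63 in those given as 2 parts (0.129%).

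No segment of the 10 differed in use between the genotypes after correction. The whole table of V segments was fitted with edgeR's quasi-likelihood test, and p-values were adjusted by Benjamini and Hochberg over the 98 segments with enough counts. All 10 members were tested and 0 passed an adjusted p of 0.05, against 0% of the 98 segments. At an unadjusted p under 0.05 there was 1 member and there were 7 segments in all. DESeq2 also called 0 of the 98, with 8 at an unadjusted p under 0.05. Of the members, 4 of 10 had a log2 fold change above 0, with a median of -0.10, beside 44 of 98 and a median of -0.05 over all segments.

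IGKV4-51 was the member with the smallest p. Its share was 0.255%, 0.280%, 0.289%, 0.289% and 0.240% in the WT samples and 0.378%, 0.391%, 0.427%, 0.415% and 0.403% in the rsCBE samples. These shares rested on 58, 60, 40, 9 and 22 counts in WT and 91, 91, 78, 59 and 47 in rsCBE. The value of WT replicate 4, from 9 counts, is therefore uncertain. Every rsCBE sample was above every WT sample, in both batches. Such a separation was seen for 3.06% of the 98 segments (IGKV4-51, IGKV4-73 and IGKV8-19), and the reverse, all rsCBE samples below all WT samples, for 0%. The log2 fold change was 0.57 ± 0.25 (SE), with an edgeR adjusted p of 0.509, so the difference did not pass. With each distinct join counted once it was 0.37 on the log2 scale (edgeR adjusted p = 0.987). The other 9 members had unadjusted p-values of 0.219 or more.

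**Figure D1:**
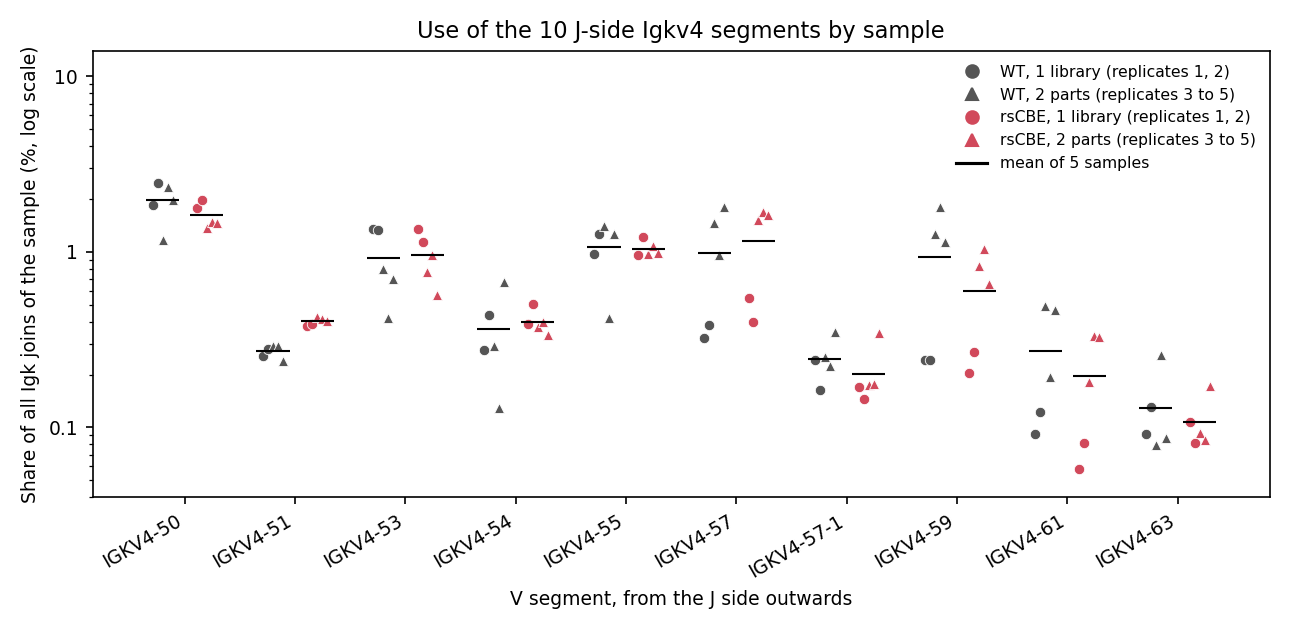
Share of each sample's kappa joins held by each of the 10 segments, in percent on a log scale, with WT in grey and rsCBE in red; circles are replicates 1 and 2, triangles replicates 3 to 5, and lines are means of 5 samples. The genotypes overlap for every segment except IGKV4-51, and for IGKV4-57, IGKV4-59 and IGKV4-61 the circles lie below the triangles.

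The batches differed more than the genotypes. With genotype in the edgeR model, 4 of the 10 members passed an adjusted p of 0.05 for batch, beside 57.1% of the 98 segments. IGKV4-57 had 0.325% to 0.544% of the joins in the 4 samples given as 1 library and 0.965% to 1.80% in the 6 given as 2 parts, without overlap. Its log2 fold change was 1.89 ± 0.20 (SE, edgeR adjusted p = 4.48e-07). IGKV4-59 (2.15 ± 0.24) and IGKV4-61 (1.96 ± 0.32) were also higher in the samples given as 2 parts, and IGKV4-53 (-0.84 ± 0.20) was lower. The neighbours of IGKV4-53 on the chromosome, IGKV4-51 and IGKV4-54, had batch values of 0.07 ± 0.22 and -0.08 ± 0.30. The genotype difference of IGKV4-51 was 0.117 percentage points in the samples given as 1 library and 0.142 in those given as 2 parts. For IGKV4-59 it was -0.00542 and -0.561 percentage points. The log2 fold change of IGKV4-59 between the genotypes, -0.61, was -0.26 without WT replicate 4 and -0.03 with each distinct join counted once.

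J use of the 10 segments was shifted toward J5 in rsCBE. J5 took 30.9%, 32.1%, 34.1%, 40.6% and 40.1% of their joins in WT replicates 1 to 5 and 46.3%, 42.0%, 48.3%, 45.96% and 51.6% in rsCBE replicates 1 to 5. Every rsCBE sample was above every WT sample. Means were 35.6% ± 4.54 and 46.8% ± 3.53 (SD, 5 samples each), 11.3 percentage points apart. In a two-sided exact permutation test the p was 0.00794, the smallest that 5 against 5 samples allow, and 0.0317 after adjustment over J1, J2, J4 and J5. The difference was 12.7 percentage points within the samples given as 1 library and 10.3 within those given as 2 parts. An exact permutation that swaps genotypes inside each batch gave p = 0.0167, which is as small as it can be, and the adjusted p of 0.0667 did not pass. With each segment at its mean share over all samples, a check chosen after seeing the data, the difference was 9.44 percentage points and the exact permutation adjusted p 0.127, which did not pass either. With replicates of the same number taken as pairs, the exact sign-flip p was 0.0625, the smallest that 5 pairs allow, so the paired test could not pass. Counting each distinct join once, the groups were 7.33 percentage points apart (exact permutation p = 0.0635, adjusted p = 0.127).

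J1 moved the other way. J1 took 22.1%, 24.1%, 24.98%, 19.2% and 26.4% of the members' joins in WT and 15.4%, 19.8%, 20.4%, 18.0% and 16.4% in rsCBE. WT replicate 4 lay within the rsCBE range, and the other WT samples lay above it. The mean in rsCBE minus that in WT was -5.34 percentage points (exact permutation, p = 0.0238 and 0.0476 after adjustment). Within the batches the differences were -5.45 and -5.27 percentage points, and the adjusted p of the exact permutation inside each batch, 0.0667, did not pass. With segments at their mean share the difference was -4.23 percentage points (exact permutation adjusted p = 0.183). The sign-flip p over pairs was again 0.0625, and counting each distinct join once left -2.27 percentage points (exact permutation p = 0.50). J2 was at 20.5% ± 2.32 in WT and 17.5% ± 2.81 in rsCBE, and J4 at 20.5% ± 2.81 and 17.7% ± 2.91 (SD, n = 5 each). Neither passed the exact permutation test, with adjusted p-values of 0.148 and 0.190. J3 was counted once among all 10797 joins. The 4 shares of a sample add up to nearly all of its joins, so they are not independent of each other.

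The adjusted calls for J5 and J1 did not hold in every fit with a sample left out. Fewer samples allow fewer splits, so a lost call need not mean that the left-out sample carried the difference. Leaving out WT replicate 1, WT replicate 2, WT replicate 3, rsCBE replicate 1 or rsCBE replicate 5 took the adjusted p of J5 to between 0.0635 and 0.0794 by the exact permutation test. Over all 10 such fits its difference stayed between 10.1 and 12.5 percentage points, and the genotypes stayed without overlap. J1 kept its call in 3 of the 10 fits. Neither call held with part b alone.

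The other V segments showed a J5 difference of similar size. In WT replicates 1 to 5, J5 took 23.4%, 25.4%, 27.8%, 34.4% and 29.4% of the joins of the other 104 V segments, and in rsCBE replicates 1 to 5 it took 38.0%, 40.2%, 38.9%, 37.1% and 38.9%. The 10 segments exceeded the others by 6.21 to 10.7 percentage points in WT and by 1.71 to 12.8 in rsCBE. The change with genotype in that excess was 0.746 percentage points (exact permutation p = 0.722). It was -2.04 and 2.60 percentage points within the batches, of opposite sign, and 3.16 in in-frame joins alone (exact permutation p = 0.333). A genotype effect particular to the 10 segments was not detected at this number of samples. The excess itself, taken over the pooled joins of the 10 segments, was present in 10 of 10 samples, with a mean of 7.84 percentage points. Its two-sided exact sign-flip p was 0.00195, the smallest that 10 samples allow. Single members differed. With the 10 samples added, the median J5 share of the 97 V segments with at least 100 counts was 37.3%. IGKV4-50 (30.3%), IGKV4-57-1 (33.3%) and IGKV4-61 (26.98%) lay below it. IGKV4-53 (37.9%) lay close to it, and the other members lay above it, from 40.4% to 58.2%.

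**Figure D2:**
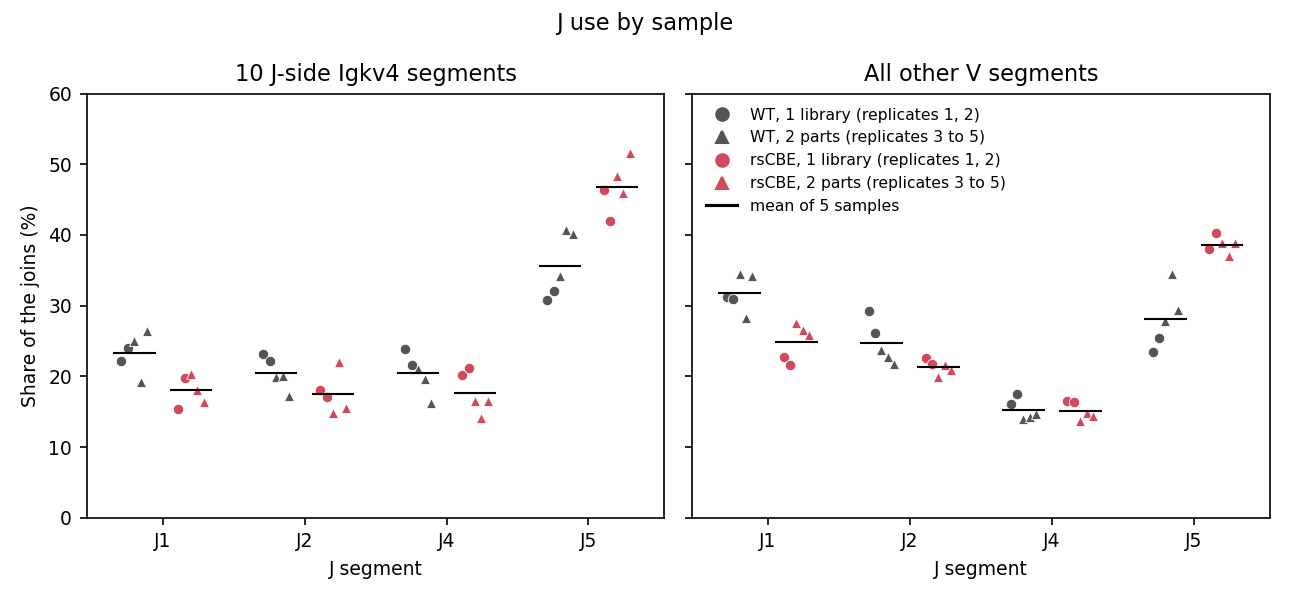
Share of joins that used J1, J2, J4 and J5, in percent, for the 10 Igkv4 segments (left) and for all other V segments (right); each point is a sample, circles are replicates 1 and 2, triangles replicates 3 to 5, and lines are means of 5 samples. In both panels the 5 rsCBE samples (red) lie above the 5 WT samples (grey) at J5, and the J5 shares are higher on the left.

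The Igkv4 segments numbered above 63 used J5 at 41.1% ± 7.43 in the WT and 54.7% ± 2.41 in the rsCBE samples (SD, 5 of each). The difference between these and the 10 segments was not tested.

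Members differed widely from each other in their J partners. With the 10 samples added, J1 took 43.8% of the 315 joins of IGKV4-61 and 0.588% of the 170 joins of IGKV4-63, its neighbour on the list. The 95% Wilson intervals, which cover counting error only, were 38.4% to 49.3% and 0.104% to 3.26%. Among the 97 V segments with at least 100 counts, IGKV4-63 had the lowest J1 share and IGKV4-61 ranked 82 from the lowest, with a median of 22.5%. The only IGKV4-63 join to J1 was 1 count in WT replicate 5. In rsCBE it was 0 of 94 counts, which allows a share of up to 3.19%. IGKV4-63 instead used J5 for 58.2% of its joins, and IGKV4-57, with 7.08% J1, used J5 for 56.8%. IGKV4-54 followed with 52.4% J5. As a mean over samples with at least 10 counts, J1 in IGKV4-61 was 48.7% ± 18.5 in WT (SD, n = 4) and 35.2% ± 14.2 in rsCBE (SD, n = 5), the highest of the 10 segments in both.

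**Figure D3:**
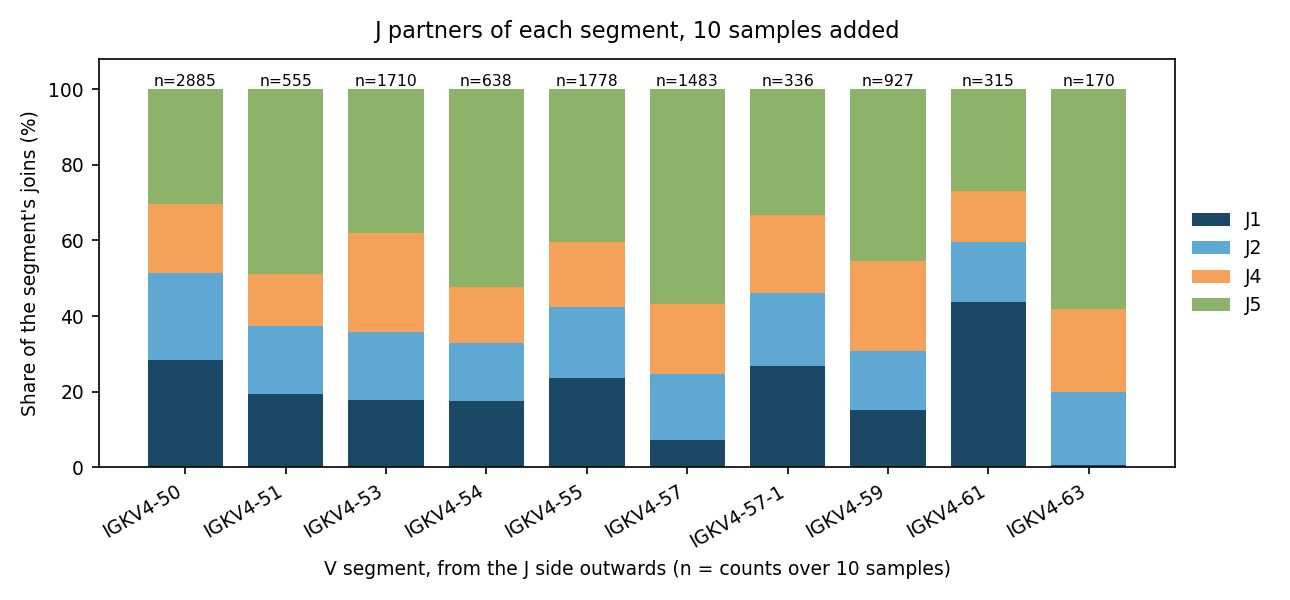
J partners of each of the 10 segments as a share of its joins in percent, with the 10 samples added and the number of counts above each bar. IGKV4-61 has the largest J1 share, 43.8%, and IGKV4-63 the smallest, 0.588%.

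These patterns varied between samples where counts were low. For IGKV4-61, J1 was counted 10, 6, 40, 0 and 28 times in WT replicates 1 to 5, and 3, 7, 18, 10 and 16 times in rsCBE replicates 1 to 5. WT replicate 4 had only 6 joins of this segment, all to J4. For IGKV4-57, J1 was counted 9, 4, 28, 0 and 19 times in WT and 5, 3, 10, 21 and 6 times in rsCBE. Its J1 share was at most 13.9% in any sample. For IGKV4-63, with 8 to 28 joins per sample, the J5 share ran from 25% in WT replicate 5 to 100% in WT replicates 3 and 4. The 8 counts in WT replicate 4 were of 1 distinct join.

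IGKV4-50 was the member in which J5 use separated the genotypes at adequate depth in every sample. J5 took 24.3%, 23.9%, 27.8%, 15.1% and 21.4% of its joins in WT and 33.3%, 33.4%, 39.8%, 42.2% and 39.2% in rsCBE. All rsCBE samples lay above all WT samples. This was the case for 1 of the 5 members with at least 10 counts in every sample, beside 15.2% of the 66 such V segments. J5 use was on average higher in rsCBE in 5 of those 5 members and in 62 of the 66 segments, with median differences of 8.40 and 9.41 percentage points. In IGKV4-57 it was 51.7% ± 15.5 in the WT and 60.1% ± 5.85 in the rsCBE samples (SD, 5 of each), with overlapping samples. Of the 5 members with at least 10 counts in every sample, IGKV4-53 and IGKV4-55 showed the smallest differences, 2.83 and 3.36 percentage points.

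As counts of single V-J pairs, none of the members' joins passed. In the edgeR fit of the whole table of V-J pairs, 26 member pairs were tested and 0 had an adjusted p under 0.05, against 0% of 270 pairs. At an unadjusted p under 0.05 there were 1 and 25. DESeq2 gave an adjusted p to 80 of the 270 pairs and to 5 of the 26 member pairs. It called 3, none of them of a member, and 43 of the 270 had an unadjusted p under 0.05. The member pair with the smallest p was IGKV4-51 with J5, counted 16, 20, 5, 9 and 10 times in WT and 60, 51, 46, 23 and 31 times in rsCBE. Its log2 fold change was 1.14 ± 0.52 (SE), with an edgeR adjusted p of 0.481. It was among the pairs without an adjusted p from DESeq2, where its unadjusted p was 0.00673. The members' J1 pairs were lower in rsCBE in 7 of 7 cases (49 of 60 over all V segments). Their J5 pairs were higher in 7 of 9 cases (71 of 83 over all).

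Most of the members' joins were in frame. The in-frame share, without a stop codon, was 76.3%, 75.2%, 75.9%, 62.6% and 70.8% in WT and 72.5%, 69.8%, 68.5%, 74.4% and 60.3% in rsCBE. The genotypes overlapped (72.1% ± 5.79 against 69.1% ± 5.43, SD, n = 5 each, exact permutation p = 0.413), and the differences within the batches were -4.61 and -2.04 percentage points. The difference of -3.07 percentage points became -5.46 without WT replicate 4 (exact permutation p = 0.0873) and -0.863 without rsCBE replicate 5, and -5.25 with each distinct join counted once (exact permutation p = 0.111). Compared with the other V segments of the same sample, the members were higher by 2.85 percentage points on average, in 7 of 10 samples. That did not pass (exact sign-flip p = 0.0508). Among single segments, IGKV4-63 had the highest mean in-frame share over samples with at least 10 counts in both genotypes, 90.1% in WT (n = 3) and 87.1% in rsCBE (n = 5). The lowest was IGKV4-51 in WT (58.1%, n = 4) and IGKV4-55 in rsCBE (62.0%, n = 5).

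In-frame CDR3s of the members were uniform in length. Their mean length was 27.2 nt ± 0.205 in the WT and 27.3 nt ± 0.120 in the rsCBE samples (SD, 5 of each), and the genotypes overlapped (exact permutation p = 0.738). Within the batches the differences were 0.00236 and 0.0748 nt. A length of 27 nt, or 9 codons, made up 84.4% ± 3.19 of the in-frame joins in WT and 86.1% ± 2.13 in rsCBE. Lengths of 30 nt made up 8.73% ± 3.90 and 8.26% ± 1.88. Within each of the 10 samples the members' CDR3s were longer than those of the other V segments, by 0.606 nt on average (exact sign-flip p = 0.00195, the smallest that 10 samples allow). The share at 27 nt was 76.7% ± 3.18 in WT and 75.1% ± 1.67 in rsCBE for the other V segments. IGKV4-63 was at 27 nt in 96.5% of its in-frame joins and IGKV4-54 in 79.1%.

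The junctions kept most of the germline ends shown above. The first 15 bases matched the germline of the called segment in 95.2% of the counts. In those joins the match to V ran on average over 21.96 of the 25 bases, and the match to J covered 5.89 bases. V and J accounted for every base of CDR3 once in 48.0% of the joins. In 39.8% some bases fitted both V and J, and in 12.2% at least 1 base fitted neither. The last share was 11.4% ± 1.58 in the WT and 13.1% ± 2.70 in the rsCBE samples (SD, 5 of each), with overlapping samples. Overlap of V and J was commonest with J4, at 74.3% of the joins, and least common with J1, at 14.4%.

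The V end was found whole in 22.1% of these joins, and the share differed with the last bases of the segment, a grouping made after the values were seen. In IGKV4-51, IGKV4-53, IGKV4-57-1 and IGKV4-63, whose germline ends in ttca or ctca, it was 31.6%, 37.7%, 35.9% and 48.4%. In the 6 segments ending in cca it was between 12.0% and 21.1%. The bases ctca also occur at the start of J5, and ttca at the start of J4, so bases counted to V here can have come from J.

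**Figure D4:**
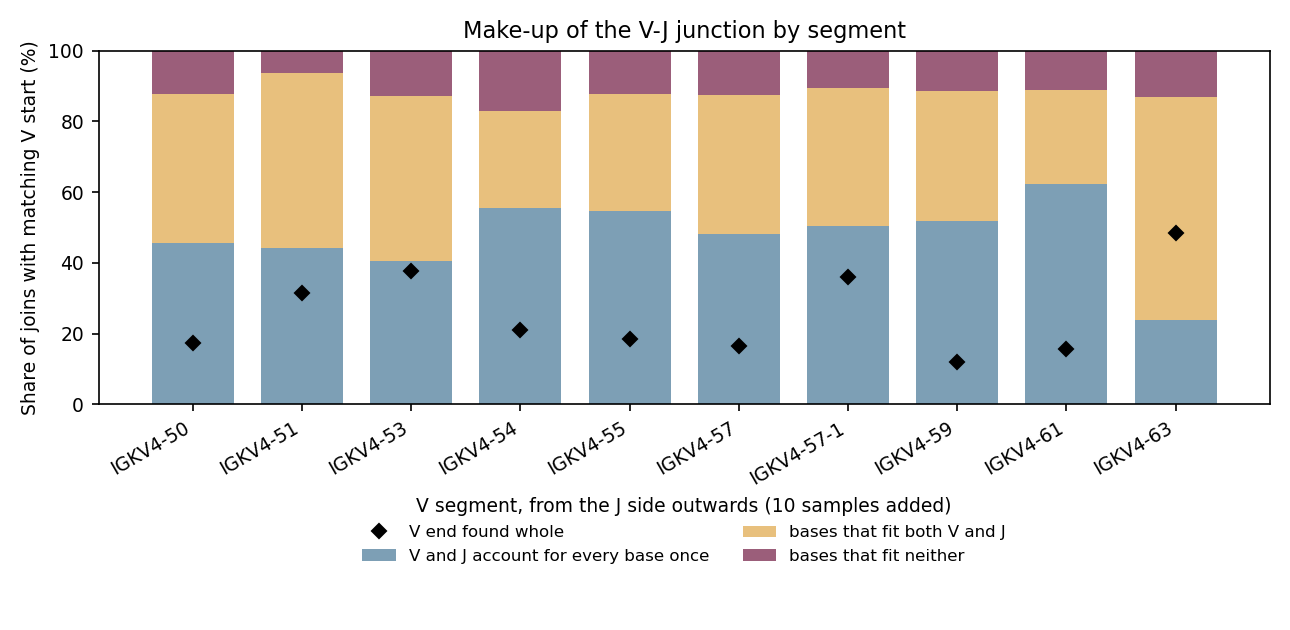
Make-up of the junctions of each segment with the 10 samples added: bars give the share of joins whose first 15 bases match, in percent, in which V and J account for each base once, share bases, or leave bases that fit neither, and diamonds the share with the V end whole. IGKV4-63 has the highest share of joins with shared bases, 62.9%, and the highest share with a whole V end, 48.4%.

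Each segment had a leading in-frame CDR3 protein sequence that was found in 9 or 10 of the samples. The commonest nucleotide form is shown for 5 segments, to set different J partners, different residues 8 (the residue next to the last of the 9, coded by V or by J bases) and different ways to the same residue side by side. Capitals mark the bases after the match to the germline V end.
IGKV4-50: cagcagtttactagttccccGTACACG
IGKV4-51: cagcagtggagtggttacccattcaCG
IGKV4-53: caacagtggagtagttacccactcaCG
IGKV4-57: cagcaaaggagtagttacccGCTCACG
IGKV4-63: tttcaggggagtgggtacccactcaCG
In IGKV4-57 the first 20 bases are V and the other 7 are the whole start of J5, and this form had 304 of the segment's 1066 in-frame counts. IGKV4-53 and IGKV4-63 reach the same residue, leucine, in a form with the V end whole and the overlapping bases of J5. Of the counts with their leading protein sequence, 62.0% and 77.8% carried the J5 call, and the rest another J call. The IGKV4-50 form carries J2 and a tyrosine at residue 8. The IGKV4-51 form has phenylalanine there. Its 155 counts had the same 27 bases but carried the J5 call in 74 of them, so the J call there rested on bases outside CDR3.

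The leading protein sequence took 70.4% of the in-frame joins of IGKV4-63, 55.9% of those of IGKV4-53 and 18.7% of those of IGKV4-61, as means over samples. For IGKV4-57 it was 32.2% ± 13.7 in the WT and 42.0% ± 5.75 in the rsCBE samples (SD, 5 of each). For IGKV4-51 it was 27.6% ± 18.8 and 43.7% ± 9.28. None of these were tested. Over all 10 segments, leucine was the commonest residue 8 of the 27-nt CDR3s, at 34.6% ± 4.23 in WT and 40.6% ± 6.18 in rsCBE. Phenylalanine stood at 17.2% ± 4.10 and 20.03% ± 2.70, tyrosine at 15.8% ± 7.09 and 11.7% ± 2.12, and proline at 11.4% ± 6.53 and 9.63% ± 2.60. Samples of the genotypes overlapped for leucine, with 31.3% to 41.4% in WT and 33.4% to 47.7% in rsCBE.

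The 10 segments gave 1805 distinct joins, counted as combinations of V, J and CDR3 bases, and 927 of these were in frame. Of the 1805, 1266 were found in a single sample and 539 in at least 2, and the latter held 84.8% of the counts. Both genotypes shared 431. In all 10 samples 11 were found, and these held 18.4% of the counts. Each sample had between 59 and 525 of them.

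The V segments outside the 10 whose use was most like theirs over the 10 samples were IGKV8-16, IGKV9-128 and IGKV4-78. Pearson's r of log2 share with the log2 summed share was 0.780, 0.780 and 0.762, out of 84 segments compared. After the mean of each batch was taken out, r was 0.395, 0.352 and 0.265. IGKV3-1, named after its values were seen, had 0.7097 before and 0.707 after that step, so the order of likeness changed with it. The points share the same libraries and totals, and the likeness is a description only.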

How the data were processed

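The authors deposited a table of whole-number counts per V call, J call and CDR3 in each library, from 151-bp paired-end MiSeq amplicon reads of RNA from sorted small pre-B cells, per the labels' protocols. Per the submitters' processing notes the genome build was mm10. The program for V and J calls, the filters, and whether a count is a read or a molecule are not given in the sources used here. Alleles and the parts of a replicate were added. A join was in frame when its CDR3 had a multiple of 3 bases and no stop.

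The tables of all V segments and all V-J pairs were fitted with edgeR 4.0.16 (quasi-likelihood test, library size as the total count, filterByExpr, Benjamini-Hochberg), with DESeq2 1.42.0 as an alternative. For J shares, frame and length the samples entered exact permutation tests (two-sided), and members with other V segments by exact sign flips within samples. Scripts were tested on simulated data. Intervals are 95% Wilson intervals and cover counting error only, since counts may not be independent molecules. All 10 segments were named, with their V-J pairs, the leading CDR3 of each segment by mean share, and the 3 other segments most like the summed share by Pearson's r. The other Igkv4 segments and V segments numbered 46 to 67 were kept to counts. The members and lists were chosen with earlier results of these data known.

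The correlation of same-numbered samples over V segments was 0.804, 0.795, 0.603, 0.120 and 0.414 for replicates 1 to 5. All were above 0.1, and the numbers were also used as pairs. The best match was another number of the same batch for replicate 2 (number 1, 0.804), replicate 4 (number 5, 0.350) and replicate 5 (number 4, 0.602). No labels say what the numbers share, so a pairing by number beyond the batch is not established. No 2 samples of a genotype agreed within sampling noise (lowest chi-square per degree of freedom 2.39 in 20 pairs). Alternatives were another scaling, no filter, a replicate block, a batch term, each distinct join counted once, joins of 1 count left out, part a or b alone, in-frame joins alone and each sample left out. Weighting segments by their mean share and fits within a batch were added after seeing the data.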

Additional observations from a re-analysis of the deposited data

Results flagged for a closer look

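In each genotype, 42 groups of 5 values in all were looked at for a sample far from the other 4, with a gap to its neighbour above 0.71 of the range. Chance flags about 1 in 20 such groups, and 4 were found. IGKV4-63 held 0.257% of the joins in WT replicate 4 and 0.0796% to 0.131% in the other WT samples, and this rested on 8 counts of 1 distinct join among 3109. In the same sample, CDR3s of 24 nt made up 12.4% of the members' in-frame joins against 0.508% to 1.91% in the other WT samples, from 17 of 137 counts and 2 distinct joins (95% Wilson interval 7.89% to 19.0%). IGKV4-57-1 held 0.343% of the joins in rsCBE replicate 5 and 0.146% to 0.176% in the other rsCBE samples, from 40 counts of 12 distinct joins. The excess of the members' J5 share over that of other V segments was 10.7 percentage points in WT replicate 5 and 6.21 to 7.41 in the other WT samples.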

How the results depend on the processing

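The number of V segments called by edgeR was 1 with a replicate block and 2 with a batch term (IGKV1-132 in both and IGKV8-19 in the latter, named after their values were seen), and 0 otherwise. For V-J pairs it was 3 with DESeq2, 7 with a batch term and 35 within the samples given as 1 library. No member was called in any of 21 alternatives, of which IGKV4-61 could be tested in 20 and IGKV4-63 in 18. Member pairs were called only within the samples given as 1 library. There IGKV4-51 with J5 (log2 fold change 1.51), IGKV4-54 with J5 (1.31) and IGKV4-57-1 with J1 (-1.57) passed. These were 3 of the 35 pairs called there over all V segments. In the fit of all samples, members made up 26 of the 270 pairs tested. Of the members, 6 changed sign in at least 1 setting. IGKV4-53 was at -0.0468 with DESeq2, -0.0467 with part b alone, -0.0259 without joins of 1 count, -0.10 within the samples given as 1 library, and -0.13 to 0.20 with a sample left out. IGKV4-54 was at -0.0736 within the samples given as 2 parts and -0.0490 to 0.447 with a sample left out, IGKV4-57-1 at 0.0546 with each distinct join counted once, and IGKV4-55, IGKV4-57 and IGKV4-63 ran from -0.236 to 0.0575, -0.00191 to 0.581 and -0.37 to 0.11 with a sample left out.

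The J5 and J1 differences kept their sign throughout. With a replicate block they were 11.3 and -5.34 percentage points (exact sign-flip p = 0.0625 each, the smallest 5 pairs allow), as with labels exchanged within batches (adjusted p = 0.0667 each), where the exact permutation p was 0.0167 and 0.0333. They were 7.33 and -2.27 with each distinct join counted once, 10.4 and -6.03 with part b alone, and 9.44 and -4.23 with segments at a fixed mix, and did not pass. With a sample left out they ran from 10.1 to 12.5 and from -6.39 to -4.57, and J1 lost its call without WT replicates 1, 2, 3 or 5 or rsCBE replicates 1, 4 or 5. J2 was -0.628 with each distinct join counted once and -2.21 with segments at a fixed mix, and ran from -4.12 to -2.34 with a sample left out, where it passed without rsCBE replicate 4. The J5 excess by genotype was -0.117 with each distinct join counted once and -0.392 to 2.37 with a sample left out. CDR3 length by genotype was -0.0212 nt with each distinct join counted once, -0.0325 with part b alone and -0.0317 to 0.112 with a sample left out. The members' in-frame excess passed at 4.04 percentage points without joins of 1 count, and ran from 2.18 to 3.52 with a sample left out, passing without WT replicate 1, WT replicate 4 or rsCBE replicate 5. The cause was not tested. WT replicate 4, with 219 counts on the members, limits each comparison within a segment.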
